A study of Homo sapiens with 4 samples.

Results

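The genes described here encode the matrix metalloproteinases (MMP), the ADAM and ADAMTS metalloproteinases and the tissue inhibitors of metalloproteinases (TIMP). They were chosen by name alone, as every non-control probe whose gene symbol on the array was MMP, ADAM, ADAMTS or TIMP followed by a number and at most 1 letter. This rule took 90 of 34127 probes, for 69 genes: 25 probes for 23 MMP genes, 4 probes for 4 TIMP genes, 34 probes for 23 ADAM genes and 27 probes for 19 ADAMTS genes. All 90 probes matched a current RefSeq gene by accession, with 1 changed symbol (ADAM5P is now ADAM5). The cells were THP1, an established human line of monoblastic acute myeloid leukaemia. They received 30 nM of miR-511 mimic, a synthetic precursor that yields miR-511-5p, or 30 nM of negative control #1 mimic, and RNA was taken on day 2. Experiments 1 and 2 each gave 1 array per mimic, so that each group holds 2 arrays and the 4 arrays come from 1 slide and 1 cell line. Both groups were transfected, and no untransfected cells were analysed here.

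MMPs are zinc-dependent enzymes that cut matrix and cell surface proteins, and most are made as inactive proforms. TIMPs bind the active site of MMPs and of some ADAMs and block it. ADAMs sit in the membrane, where ADAM10 and ADAM17 release the outer parts of cytokines and receptors, while ADAMTS enzymes are secreted and cut proteoglycans, procollagens and von Willebrand factor. In monocytes and macrophages MMP9, a gelatinase, is known for its part in migration through basement membrane.

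The miRNA that the mimic supplies is shown with its seed, bases 2 to 8, in capitals, since this stretch pairs with target transcripts. Its sequence is from RefSeq (GRCh38.p14, chr10:17845122-17845142, plus strand).
hsa-miR-511-5p: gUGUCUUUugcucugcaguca
The complement of the seed, AAAGACA, was in 0 of the 90 probe sequences and in 331 of all 34127 (0.970%). These 60-base probes cover a small part of each transcript, and no match says only that these letters are not in the probe.

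Promoters of genes that were not detected (MMP7, MMP10) and of genes that were (MMP14, ADAM17) are shown as picked examples. Whether their motifs go with detection, described next, was not tested. Each is the 250 bases before the start of the gene, 5′ to 3′ on the gene's strand, from RefSeq (GRCh38.p14). Capitals mark the AP-1 motif TGANTCA, the TATA box TATAAA and the GC box GGGCGG, searched on both strands. The regions are chr11:102530748-102530997 (minus strand) for MMP7, chr11:102780629-102780878 (minus) for MMP10, chr14:22836335-22836584 (plus) for MMP14 and chr2:9555831-9556080 (minus) for ADAM17.
MMP7 promoter: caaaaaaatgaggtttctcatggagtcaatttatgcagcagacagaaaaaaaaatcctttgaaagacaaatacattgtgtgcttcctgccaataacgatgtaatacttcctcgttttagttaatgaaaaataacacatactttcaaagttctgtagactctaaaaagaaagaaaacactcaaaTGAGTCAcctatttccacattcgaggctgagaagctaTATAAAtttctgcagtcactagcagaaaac
MMP10 promoter: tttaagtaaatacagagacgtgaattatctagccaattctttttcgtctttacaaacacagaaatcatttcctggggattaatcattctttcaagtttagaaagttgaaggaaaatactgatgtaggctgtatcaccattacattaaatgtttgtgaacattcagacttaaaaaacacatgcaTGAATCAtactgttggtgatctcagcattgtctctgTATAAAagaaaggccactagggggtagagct
MMP14 promoter: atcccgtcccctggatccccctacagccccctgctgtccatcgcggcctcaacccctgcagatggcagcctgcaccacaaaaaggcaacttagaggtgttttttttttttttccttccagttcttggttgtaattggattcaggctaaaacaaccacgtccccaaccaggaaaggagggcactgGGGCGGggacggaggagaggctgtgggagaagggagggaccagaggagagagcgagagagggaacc
ADAM17 promoter: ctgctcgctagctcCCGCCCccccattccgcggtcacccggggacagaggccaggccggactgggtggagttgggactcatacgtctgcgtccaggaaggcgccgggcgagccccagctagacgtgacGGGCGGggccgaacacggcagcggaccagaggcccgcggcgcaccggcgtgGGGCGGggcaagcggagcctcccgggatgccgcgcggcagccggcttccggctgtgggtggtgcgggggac
The MMP7 and MMP10 promoters each held an AP-1 motif 67 bases before the start and a TATA box at 30 and 31 bases, respectively. The MMP14 promoter held 1 GC box and the ADAM17 promoter 3. Over all 35116 promoters of the same length, 6.57% held the AP-1 motif, 10.7% the TATA box and 42.6% the GC box. A promoter was listed for 39 of the 69 genes (56.5%), and MMP9 was among those without one. The motifs were not counted among these 39, so the family was not compared with other genes.

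A probe is called detected on an array when the scanner software marked it as well above background. Of the 90 probes, 39 (43.3%) were detected on all 4 arrays, 11 on 1 to 3 arrays and 40 (44.4%) on none, while of all 34127 probes 63.4% were detected on all 4 and 28.8% on none. By gene, 29 of 69 had a probe detected on all 4 arrays and 31 had none detected on any. By branch, 12 of 25 MMP probes, 2 of 4 TIMP probes, 14 of 34 ADAM probes and 11 of 27 ADAMTS probes were detected on all 4 arrays, each a smaller share than that of all probes. These shares are a description of these libraries and carry no test.

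The collagenases MMP1, MMP8 and MMP13, which cut fibrillar collagen, were detected on no array (0 of 3 probes). Of the 5 stromelysin and matrilysin probes, which stand for enzymes of broad matrix specificity, MMP3, MMP7, MMP10 and MMP26 were detected on none, and MMP11 on 1 array only, the control of experiment 2. Both gelatinases, MMP2 and MMP9, were detected on all 4 arrays, as were 5 of 7 probes of the membrane-type enzymes (MMP14, MMP15, MMP17 and 2 probes of MMP25). Among the inhibitors TIMP1 and TIMP2 were detected on all 4 arrays, TIMP4 on 3 and TIMP3, which is bound to the matrix, on none.

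**Figure D1:**
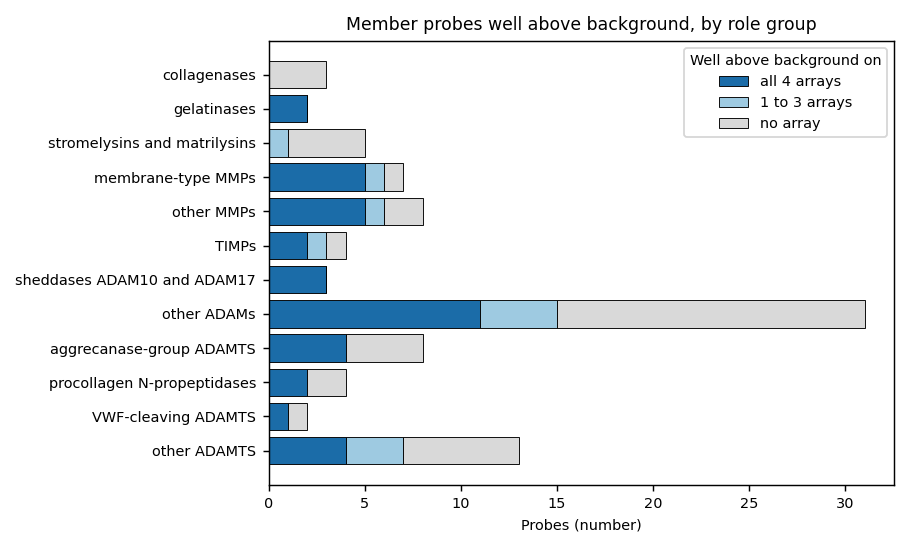
Number of MMP, TIMP, ADAM and ADAMTS probes (horizontal axis) in each role group, split by the arrays on which they were well above background. Gelatinases and ADAM10 with ADAM17 were detected on all 4 arrays at each probe, whereas all 3 collagenase probes were detected on none.

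Many of the undetected MMPs lay together in the genome. On chromosome 11 none of the 12 genes was detected on all 4 arrays, and 9 of them form the MMP cluster at 11q22, where their probes span 102394029 to 102813832 in hg19 (420 kb). In that cluster 1 gene, MMP12, the macrophage elastase, was above background on any array. Its normalised log2 intensity was 1.67 with miR-511 and 1.40 with control mimic in experiment 1, and 1.49 and 5.74 in experiment 2. The first 3 of these are surrogate values that the software gives to spots at background, so the single detected array has no replicate. The probes of the cluster share a location and were not tested as independent observations.

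Both ADAM10 and ADAM17 were detected on all 4 arrays at each of their 3 probes. Of the other 31 ADAM probes, 11 were detected on all 4 arrays, 4 on some and 16 on none. ADAM8, ADAM11, ADAM12, ADAM15, ADAM19, ADAM20 and ADAM33 had a probe detected on all 4 arrays. ADAM2, ADAM18, ADAM21, ADAM23, ADAM28, ADAM29, ADAM30 and ADAM32, and the pseudogene-like ADAM3A, ADAM5P and ADAM6, were detected on none. Of the ADAMTS genes, ADAMTS1, ADAMTS2, ADAMTS4, ADAMTS7, ADAMTS9, ADAMTS10, ADAMTS13 and ADAMTS19 had a probe detected on all 4 arrays, and ADAMTS5, a main aggrecanase, had none. Of the 12 role groups, the aggrecanase group was detected at 4 of 8 probes, the procollagen N-propeptidases at 2 of 4 (both of ADAMTS2) and ADAMTS13, which cuts von Willebrand factor, at 1 of 2. Among the remaining MMPs, 5 of 8 probes were detected on all 4 arrays, for MMP19, MMP21, MMP23B and MMP28.

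By array, 41 and 46 of the 90 probes were detected in experiment 1 with miR-511 and control mimic, and 43 and 48 in experiment 2. Both control arrays thus lay above both miR-511 arrays, at 51.1% and 53.3% against 45.6% and 47.8%. Over all probes the shares were 64.8% and 69.3% in experiment 1 and 67.2% and 66.6% in experiment 2, which do not separate the mimics. With 2 arrays against 2, the smallest p of an exact permutation test is 0.333, so that no test was made. Fewer cells of a type and less RNA per cell cannot be told apart in these bulk samples.

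The mimics were compared by limma over the 22638 probes detected on both arrays of at least 1 group, of which 44 belong to these genes (33 genes). The other 46 were not tested, and 19 of them held surrogate values on all 4 arrays. Of the 44, 39 were detected on all 4 arrays, and the other 5 (TIMP4, ADAM7, ADAM9, a probe of ADAM12 and ADAMTS17) entered through the control arrays alone. At the study's unadjusted threshold of 0.05, 3 of the 44 (6.82%) passed, with MMP9 and 1 probe of ADAM33 higher and 1 probe of ADAMTS2 lower with miR-511 mimic. Over all tested probes 498 (2.20%) passed, 287 higher (1.27%) and 211 lower (0.932%). No probe of these genes, and none of all tested, passed after Benjamini-Hochberg adjustment (smallest limma adjusted p 1.00 for these genes and 0.790 over all), so the 3 calls rest on the unadjusted threshold.

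MMP9 was the sole MMP past that threshold, and its values are given first. Its probe lies at chr20:44645121-44645180 (hg19) and was printed 10 times on each array. The normalised log2 intensity was 6.87 with miR-511 and 6.31 with control mimic in experiment 1, and 6.70 and 6.41 in experiment 2. Both miR-511 arrays were above both control arrays, by 0.56 in experiment 1 and 0.29 in experiment 2. The mean was 6.79 ± 0.12 (SD, n = 2) against 6.36 ± 0.069 (SD, n = 2), a log2FC of 0.42 with SE 0.11 and a 95% interval of 0.12 to 0.73, or 1.34-fold. Before normalization the 10 spots had median processed intensities of 104 and 84.4 in experiment 1 and of 109 and 80.1 in experiment 2, miR-511 first, with all 10 above background on each array. The medians were thus higher with miR-511 in both experiments, and further apart in experiment 2. The normalised values were further apart in experiment 1. The spots overlapped, at 87.2 to 125 with miR-511 against 74.1 to 100 with control mimic in experiment 1. In experiment 2 they ran from 98.8 to 127 against 72.4 to 99.2. The printed copies share 1 RNA and add no replicate. After normexp background correction the log2FC was 0.23, and it still passed. With 1 array left out the log2FC was 0.34 to 0.51, and it passed without replicate 2 of miR-511 mimic but not without any of the other arrays. Such a fit leaves 1 array in a group and assumes that it varies like the 2 arrays of the other group, so its passes and losses do not measure stability.

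The other gelatinase, MMP2, gave 7.86 and 7.84 in experiment 1 and 7.93 and 7.93 in experiment 2, miR-511 first. Its log2FC was 0.01 (95% interval -0.25 to 0.28). Among the membrane-type enzymes MMP14, which activates pro-MMP2, was at 9.81 and 9.92, then at 9.57 and 9.64, a log2FC of -0.09 with SE 0.16. MMP15, MMP17 and both probes of MMP25 had log2FC of 0.03, 0.07, -0.01 and 0.09, and none of these passed the test.

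MMP28 (epilysin), known from keratinocytes, had a wide spread. It was at 4.82 with miR-511 and 6.63 with control mimic in experiment 1, and at 6.12 and 5.52 in experiment 2. The mimics thus differed by -1.81 in one experiment and 0.60 in the other, and the log2FC of -0.61 had an interval of -2.25 to 1.04. MMP19, which cuts basement membrane proteins, had probes that differed in sign. Its brighter probe was at 7.42 and 7.13, then at 7.19 and 6.85, a log2FC of 0.31 that passed only with experiment as a block. Its other probe was at 6.14 and 6.32, then at 6.44 and 6.61, a log2FC of -0.18.

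TIMP1, the main secreted inhibitor of MMP9, was at 12.76 and 12.91 in experiment 1 and at 12.65 and 12.65 in experiment 2, miR-511 first. Its log2FC was -0.07 (95% interval -0.44 to 0.29). TIMP2, which also takes part in pro-MMP2 activation, was at 13.44 and 13.37, then at 13.18 and 13.18, a log2FC of 0.04 (interval -0.35 to 0.43) that turned to -0.014 under normexp. Neither gene passed the test. TIMP4 was at 3.32 and 3.78, then at 4.71 and 4.52, a log2FC of -0.14 with SE 0.55, and was above background on 1 of its 2 miR-511 arrays.

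Neither sheddase passed the test. ADAM17 was at 9.74 and 9.74 in experiment 1 and at 9.83 and 9.63 in experiment 2, a log2FC of 0.10 (95% interval -0.18 to 0.37). The brighter ADAM10 probe was at 10.53 and 10.55, then at 10.36 and 10.06, a log2FC of 0.14 (interval -0.40 to 0.69), and the dimmer at 0.02.

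ADAM33, an ADAM of mesenchymal tissue, was covered by 3 probes, and all 3 were higher on average with miR-511 mimic. The dimmest, at chr20:3654712-3654771 (hg19), was at 3.80 and 3.51, then at 3.87 and 3.50, so that both miR-511 arrays lay above both controls. Its log2FC of 0.33 (SE 0.091, 1.25-fold) passed. These values lie near the lowest log2 intensity marked as above background, which was 2.98 to 3.44 per array. Under normexp the log2FC was 0.059 and did not pass, and it did not pass with 75th percentile scaling or an intensity trend, nor without any one array. The middle probe was at 5.72 and 5.16, then at 5.18 and 4.93, a log2FC of 0.41 that, over all 4 arrays, passed only with the block, and the brightest had 0.17.

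ADAM20, whose miR-511 arrays also lay above both controls, was at 5.26 and 5.11, then at 5.28 and 4.64, a log2FC of 0.39 with SE 0.19. It was 0.071 under normexp and 0.15 without replicate 2 of control mimic. ADAM7 was at 3.64 and 3.77, then at 2.78 and 3.89, and did not clear the background call with miR-511 in either experiment. Its log2FC was -0.62 with SE 0.31, and the limma interval of -1.48 to 0.23 included no difference. Taking the higher of its own signal and the lowest signal above background on each miR-511 array, the controls were 1.27-fold brighter on average. That value is not a lower limit, since the mimics differed by -0.14 in experiment 1. ADAM7 entered the test through the control arrays alone, a choice that favours higher control values. Neither gene passed the test. The brighter probe of ADAM15 was at 14.08 and 14.43, then at 14.09 and 13.75, so that the mimics differed in opposite directions in the 2 experiments, with a log2FC of -0.01. The ADAM11 probes differed in sign as well, at 0.20 and -0.16.

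ADAMTS2, which removes the N-propeptide of procollagens, gave the largest fall among the 44 probes. The probe at chr5:178770922-178770981 (hg19) was at 5.05 with miR-511 and 6.53 with control mimic in experiment 1, and at 6.05 and 6.91 in experiment 2. Both miR-511 arrays were below both controls, and the log2FC was -1.17 (SE 0.38, 95% interval -2.22 to -0.12), or 2.24-fold lower. The second ADAMTS2 probe, 136 kb away, was at 8.15 and 7.90, then at 8.0 and 8.33, a log2FC of -0.04. The fall was thus seen at 1 of the 2 probes, and where in the transcript each lies was not analysed here. The fall did not pass in a fit of all probes without the filter on dim ones, where it was -1.17, nor with either control array left out, where it was -1.36 (without replicate 1) and -0.98 (without replicate 2). Without replicate 1 and replicate 2 of miR-511 mimic it was -0.66 and -1.67, in fits whose spread comes from the 2 control arrays alone. After normexp it was -0.56 and passed.

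ADAMTS10 was lower with miR-511 mimic in both experiments and did not pass the test. It was at 4.57 and 5.91 in experiment 1 and at 5.99 and 6.73 in experiment 2, a log2FC of -1.04 with SE 0.58 that, over all 4 arrays, passed only with experiment as a block. The groups overlapped, since the miR-511 array of experiment 2 lay above the control array of experiment 1. Neither tested probe of ADAMTS7 passed. The brighter was at 16.21 and 16.20, then at 16.42 and 16.31 (log2FC 0.06), and the dimmer at 6.37 and 5.45, then at 7.66 and 7.40 (log2FC 0.59, SE 0.81). The gene's untested probes had means of 3.56 (detected on 1 array) and 1.86 (on none). The level of ADAMTS7 thus differed widely by probe.

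**Figure D2:**
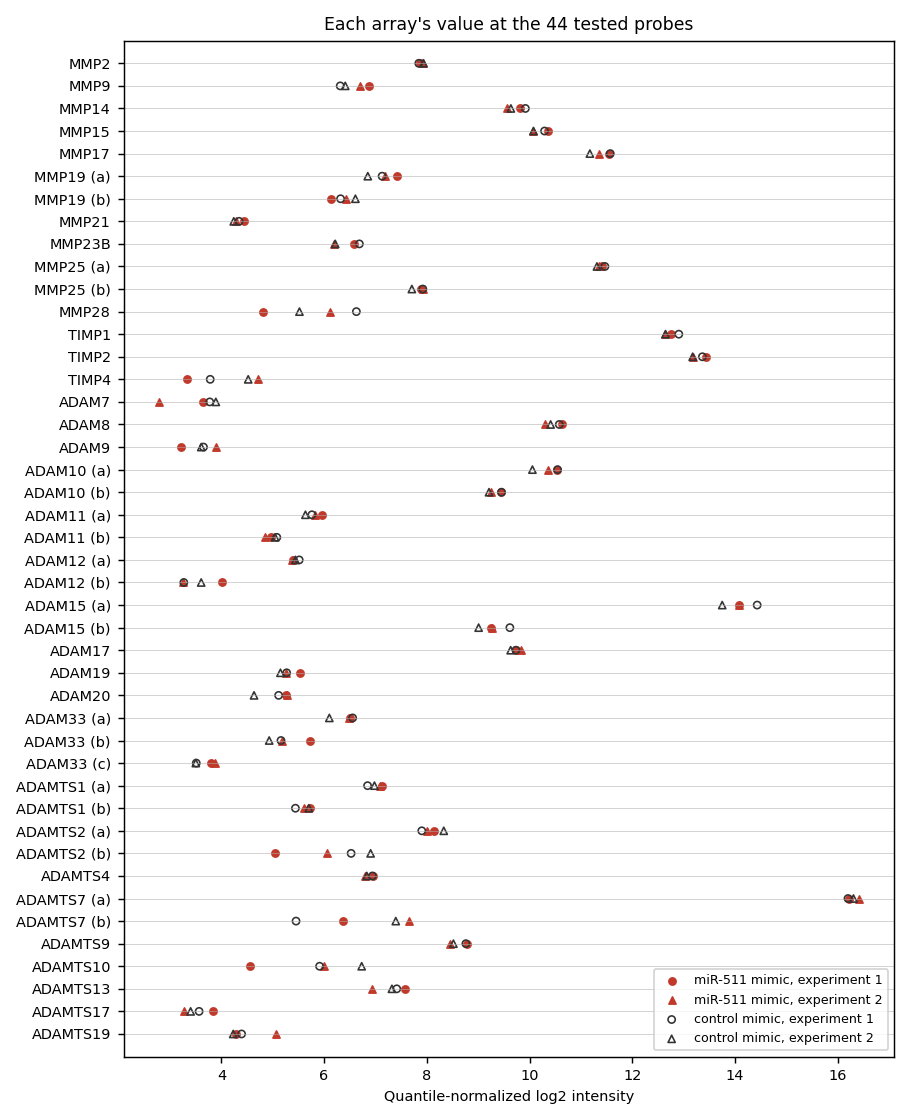
Quantile-normalized log2 intensity (horizontal axis) on each of the 4 arrays at the 44 tested probes, with letters (a) to (c) for probes of a gene from bright to dim. MMP9 and ADAM33 (c) have both miR-511 arrays to the right of both controls, and ADAMTS2 (b) has both to the left. Probes that did not pass, such as ADAM20 and MMP19 (a), are separated in this way too, and such separation was not counted over all tested probes.

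**Figure D3:**
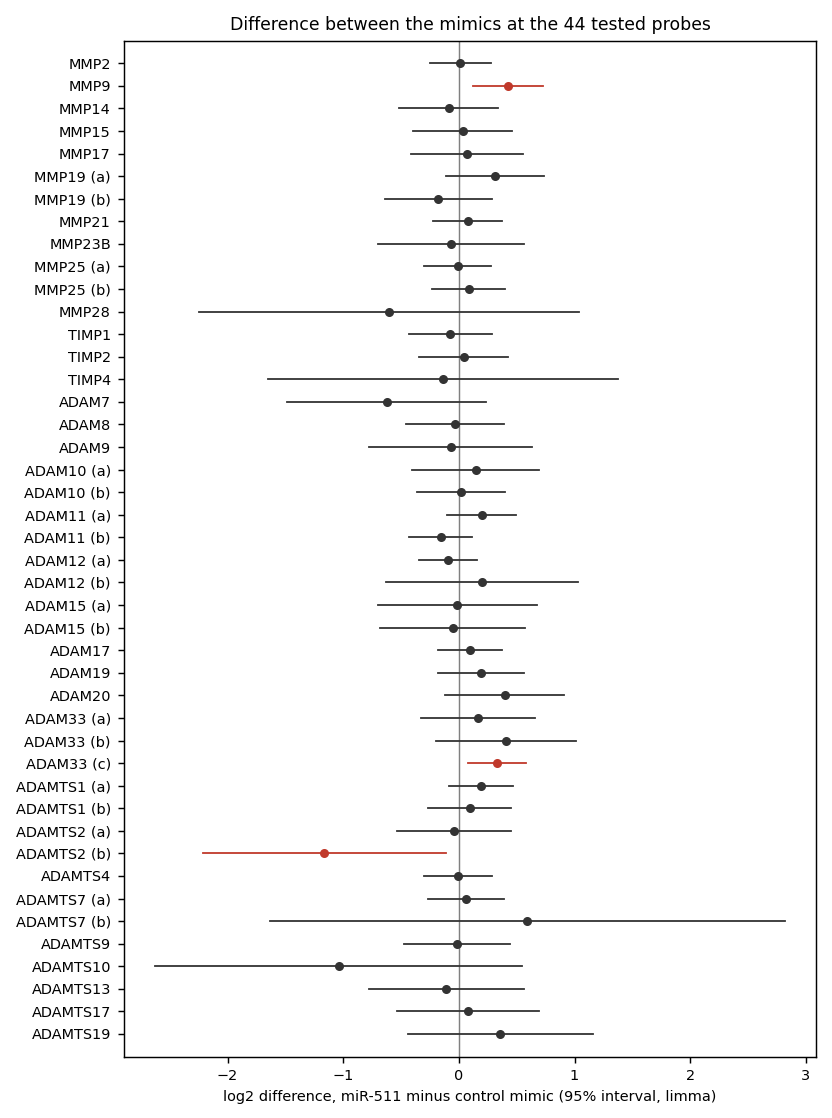
log2 difference between the mimics (points) with the 95% interval from limma (lines) at the 44 tested probes, with the 3 probes past the unadjusted threshold in red. At MMP28, TIMP4, ADAMTS7 (b) and ADAMTS10 the interval spans more than 3 log2 units.

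Over the 44 probes, 24 were positive (54.5%) and 20 negative, with a median log2FC of 0.027, against 53.7% positive and 0.0098 over all tested probes. With 1 array left out the median ran from -0.058 (40.9% positive, without replicate 2 of control mimic) to 0.11 (68.2% positive, without replicate 1 of control mimic). The size was below 0.2 at 33 of them and above 1 at 2. The log2FC was below 2 SE at 39. Such counts were not made over all tested probes, where the median size was 0.079, against 0.095 here. By branch, the median was 0.02 for 12 MMP probes, -0.07 for 3 TIMP probes, 0.10 for 17 ADAM probes and 0.03 for 12 ADAMTS probes. The 10 genes with more than 1 tested probe include 4 whose probes differed in sign.

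The experiments were compared probe by probe. Both experiments gave the same direction at 23 of 44 probes (52.3%), 14 higher and 9 lower, and opposite directions at 21, while over all tested probes the share was 51.0%. Across probes the correlation between the experiments was 0.177 (n = 44), against 0.038 over all 22638, and probes of one array share that array's RNA and normalization. The control arrays alone differed between experiments by more than the log2FC at 29 of the 44. With experiment as a block, 6 of the 44 probes passed against 894 of all tested (3.95%). The 3 added were the brighter MMP19 probe, the middle ADAM33 probe and ADAMTS10.

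**Figure D4:**
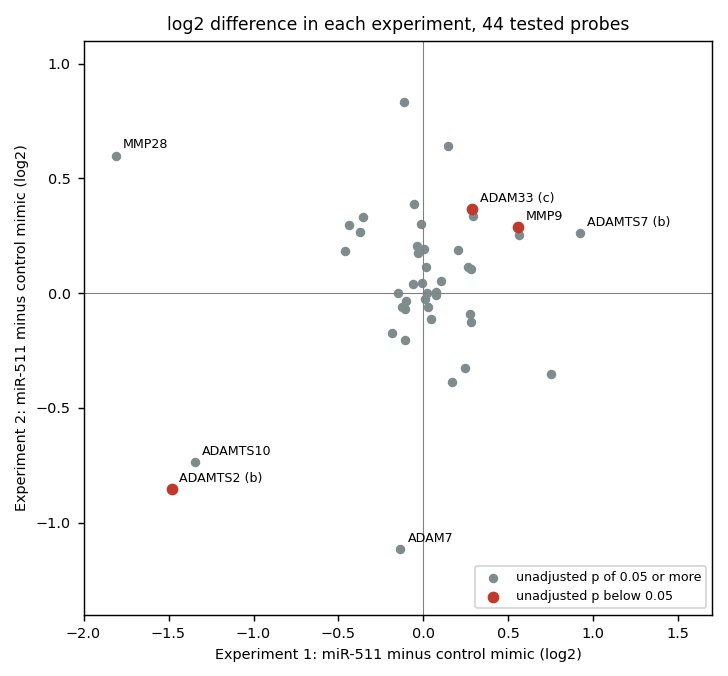
log2 difference of miR-511 minus control mimic in experiment 1 (horizontal axis) and experiment 2 (vertical axis) for the 44 tested probes. ADAMTS2 (b) and ADAMTS10 lie low in both, MMP9 and ADAM33 (c) high in both, and MMP28 at -1.81 and 0.60.

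Partners, regulators and substrates of these enzymes were counted at the same threshold, which 2.20% of all tested probes passed. The 15 listed regulators of MMP promoters were AP-1, NF-kB and ETS factors together with SP1 and EGR1. All 15 were detected on all 4 arrays and 0 passed, with 14 positive and a median log2FC of 0.10. Without replicate 1 of miR-511 mimic, 8 were positive and the median was 0.01. Of 11 tested sheddase partners 0 passed (6 positive, median 0.04), of 10 genes of MMP activation and the plasminogen system 0 (3 positive, median -0.01) and of 6 related metzincins 0 (3 positive, median 0.01). For the activation and plasminogen genes, 7 were positive without replicate 2 of miR-511 mimic (median 0.03) and 6 without replicate 1 of control mimic (median 0.01). These counts take the brightest probe of each gene.

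Of 19 tested ADAM10 and ADAM17 substrates 1 passed: LRP1, a scavenger receptor, at 4.03 and 3.47, then 3.98 and 3.48, a log2FC of 0.53 with SE 0.090. These values also lie near the lowest signal marked as above background, and LRP1 did not pass under normexp or with an intensity trend. Its other probe was detected on 1 array and not tested. Of 13 matrix substrates, 0 passed at the brightest probe, with 11 positive and a median of 0.07, but 5 positive and a median of -0.05 without replicate 1 of miR-511 mimic. A dimmer probe of elastin (ELN), which MMP12 cuts, passed with a log2FC of -0.37, while its brighter probe was at 0.01. The difference between the probes of a gene was not tested.

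Cell type markers were counted as well. Detection on all 4 arrays does not by itself identify a cell type, since 63.4% of all probes had it. Of monocyte markers with a probe, 10 of 10 were detected on all 4 arrays. Of markers of fibroblasts, the cells best known as a source of many of these genes, 0 of 6 were. Of the lymphoid, epithelial and red cell markers, 2 of 5 T cell, 4 of 5 B cell, 2 of 5 epithelial and 3 of 4 erythroid and megakaryocyte genes were detected on all 4. Of these markers 0 passed the test, and CD86, a monocyte marker, passed only with the block (log2FC -0.33). Their part in the results was not tested.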

How the data were processed

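THP1 cells were transfected with miR-511 mimic or negative control #1 mimic in 2 experiments. Their RNA was hybridized to single-dye Agilent arrays at a laboratory commissioned by the authors. They deposited the scanner output, in which the scanner software had subtracted background from the processed intensity of each spot, with no normalization between arrays, and a table of log2 values, quantile normalized by the authors. The submitters' processing notes name Agilent Feature Extraction 10.5.1.1. Coordinates are hg19 as in the files.

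Here, log2 processed intensity of 43118 non-control spots was quantile normalized after 232 to 301 marked spots per array were left out, and spots of a probe were averaged (R 4.3.3, limma 3.58.1). A probe printed 10 times counted as detected when over 50% of its spots were. limma's lmFit and eBayes tested 22638 probes two-sided, with 4.14 total degrees of freedom. The number of arrays limits precision. Experiment numbers come from the labels and pair the arrays (correlation of deviations 0.271). The functions were tested on simulated data. P-values measure the spread between 2 experiments in 1 cell line.

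The genes and lists were chosen with earlier results of these data known. Named genes were MMP9, the TIMPs, ADAM10, ADAM17, genes with a probe past the unadjusted threshold and, of probes moving the same way in both experiments, the 5 largest rises and 5 largest falls. Genes detected on all 4 arrays could be named too, and MMP12 and CD86 were chosen after their values were seen. Alternatives were 75th percentile scaling, normexp (offset 50), no or a strict filter, marked spots kept, the deposited table, a replicate block, an intensity trend, a plain t-test and leaving out each array. Protein motifs were not analysed here.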

Additional observations from a re-analysis of the deposited data

How the results depend on the processing

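The precision is limited by 2 arrays per mimic and, at some probes, by signals close to background. Among these are TIMP4, ADAM7, ADAM9, ADAMTS17, the dimmer tested ADAM12 probe and the dimmest ADAM33 probe. The number of MMP, TIMP, ADAM and ADAMTS probes past the unadjusted threshold was 3. It was 2 to 3 under 75th percentile scaling, normexp, no or a strict filter, marked spots kept, the deposited table and the intensity trend. Over all tested probes 1.17% (normexp) to 3.02% (no filter) passed under those alternatives. The number was 6 with the replicate block, which pairs the arrays by experiment, where 3.95% of all tested probes passed. It was 1 with the plain t-test, where 3.13% of all passed. MMP9 passed under 8 of 9 alternatives that keep every array. The plain t-test gave its log2FC of 0.42 no call, and without 1 array it ranged from 0.34 to 0.51. Beside the 3 probes it added, the replicate block changed no call of an MMP, TIMP, ADAM or ADAMTS probe, and in the other lists it added TSPAN33 (0.27), HSPG2 and CD86.

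TIMP2 turned to -0.014 and the brighter ADAMTS2 probe to 0.029 under normexp. Leaving out 1 array turned further signs, none of them called: TIMP1 ranged from -0.20 to 0.055, TIMP2 from -0.088 to 0.17, TIMP4 from -0.83 to 0.56, the ADAM10 probes from -0.10 to 0.39 and from -0.10 to 0.14, the ADAMTS7 probes from -0.38 to 1.56 and from -0.041 to 0.17, the brightest ADAM33 probe from -0.060 to 0.39 and the brighter ADAMTS2 probe from -0.25 to 0.17. Under normexp the median of the sheddase partners was -0.016 and that of the ADAM10 and ADAM17 substrates -0.012. The ADAMTS2 fall was lost with the plain t-test. Without the filter, the 3 probes of 90 that passed were MMP1, detected on no array, MMP9 and the dimmest ADAM33 probe. With 1 array left out, the middle ADAM33 probe ranged from 0.14 to 0.67, ADAMTS10 from -1.76 to -0.33 and ADAM20 from 0.15 to 0.63, each past the threshold at its largest size alone. The lone array of a group is there assumed to vary like the other group. The cause was not tested. The counts of passing probes given next come from the same fits. The share of all tested probes that passed also differed between these fits, so the counts do not describe these genes alone. By limma, 0 probes passed without replicate 2 of control mimic, 1 without replicate 1 of control mimic, 4 without replicate 1 and 5 without replicate 2 of miR-511 mimic.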
